A study of Mus musculus with 2 samples.

Results

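The Mir17-92 cluster is a group of 6 microRNA genes, Mir17, Mir18, Mir19a, Mir20a, Mir19b-1 and Mir92-1, that lie close together on the plus strand of mouse chromosome 14. Members were found by their symbol in the GENCODE M21 annotation, a rule that uses no measured value, and are 6 of the 2202 microRNA genes in the count tables. They were measured in left cerebral cortex from B6CASTF1/J pups, all female and 4 days old, which have a C57BL/6 and a CAST parent; the labels name no treatment. The labels give 1 group of 2 biological replicates with 1 library each, from 2 separately numbered pups that share a donor record, so there was no comparison between conditions and no test of one. Libraries held RNA of fewer than 30 bases, and a count is the number of reads assigned to a hairpin, with the products of both arms added up.

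MicroRNAs are cut from hairpins in longer transcripts, and the mature strand then guides repressor complexes to messenger RNAs that pair with its seed, bases 2 to 8 from the 5′ end. The hairpins of the Mir17-92 cluster are made from a single host transcript, Mir17hg, which MYC and E2F factors are known to activate. Its products are known to favour proliferation and survival, and in the developing cortex they are known from dividing progenitors. Mammals carry paralogous clusters that begin with Mir106a on chromosome X and with Mir106b on chromosome 5.

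On mm10 the cluster spans 836 bases, from 115043671 to 115044506 of chromosome 14, within exon 2 of the only annotated Mir17hg transcript (exon 2 runs from 115043271 to 115046727). In the direction of transcription the order is Mir17 (ENSMUSG00000065508.1, 115043671 to 115043754), Mir18 (ENSMUSG00000065403.1, 115043851 to 115043946), Mir19a (ENSMUSG00000065416.1, 115044000 to 115044081), Mir20a (ENSMUSG00000065442.1, 115044157 to 115044263), Mir19b-1 (ENSMUSG00000076256.1, 115044305 to 115044391) and Mir92-1 (ENSMUSG00000076062.1, 115044427 to 115044506). Neighbouring hairpins are 35 to 96 bases apart. Hairpins measure 80 to 107 bases with a GC content of 43.7% to 47.5% and a computed folding energy between -38.7 kcal/mol for Mir19a and -29.2 kcal/mol for Mir18.

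The 6 mature strands below are the arms usually taken as the active product, shown because their seeds sort the members into 4 groups. Sequences are RefSeq's on GRCm38.p6, 5′ to 3′, with the seed in capitals.
miR-17-5p (from Mir17): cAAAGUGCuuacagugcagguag
miR-20a-5p (from Mir20a): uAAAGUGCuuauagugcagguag
miR-18a-5p (from Mir18): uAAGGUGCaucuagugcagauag
miR-19a-3p (from Mir19a): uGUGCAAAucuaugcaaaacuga
miR-19b-3p (from Mir19b-1): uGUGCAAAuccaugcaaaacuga
miR-92a-3p (from Mir92-1): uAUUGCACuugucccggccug

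Mir17 and Mir20a share a seed and, counting from the 5′ end of miR-17-5p, differ at 2 of 23 bases (C1U and C12U). The strands of Mir19a and Mir19b-1 share another seed and differ at 1 of 23 bases (U11C, counted from the 5′ end of miR-19a-3p). Mir18 and Mir92-1 each have a seed of their own within the cluster. All 6 members matched RefSeq's table of mature strands.

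Reads that map to several places were kept in a separate total by the submitters and assigned to no gene, so a copy elsewhere in the genome bears on what can be counted. Of the 6 members, 2 carry a mature strand that stands whole in another hairpin, in both cases on chromosome X. Among all 1018 counted genes with a RefSeq mature strand, 11.2% had a strand of either arm that stands whole in another hairpin. The paired hairpins are shown on mm10 with the longest shared stretch in capitals, which is 25 bases for the Mir19b pair and 22 bases for the Mir92 pair.
Mir19b-1 (chr14:115044305-115044391, plus strand): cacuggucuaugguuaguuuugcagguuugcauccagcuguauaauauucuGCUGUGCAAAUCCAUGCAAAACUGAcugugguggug
Mir19b-2 (chrX:52741983-52742066, minus strand): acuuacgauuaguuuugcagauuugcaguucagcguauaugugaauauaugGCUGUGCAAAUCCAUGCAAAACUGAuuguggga
Mir92-1 (chr14:115044427-115044506, plus strand): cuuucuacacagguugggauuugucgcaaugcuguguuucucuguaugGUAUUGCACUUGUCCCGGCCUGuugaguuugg
Mir92-2 (chrX:52741838-52741928, minus strand): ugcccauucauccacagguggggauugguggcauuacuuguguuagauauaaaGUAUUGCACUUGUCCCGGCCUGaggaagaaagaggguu

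The whole 23-base strand of miR-19b-3p lies inside the stretch common to Mir19b-1 and Mir19b-2. The 21-base strand of miR-92a-3p also lies inside its common stretch, with 1 shared base before it and none after it. Reads within these common stretches could be assigned to neither gene of a pair. Counts of Mir19b-1 and Mir92-1, and sums that hold them, are therefore minima. No other hairpin in the tables holds the whole mature strand of Mir17, Mir18, Mir19a or Mir20a. The longest stretch of a member's mature strand found in any other hairpin was 13 bases for Mir17 and Mir20a, 12 for Mir19a and 17 for Mir18, the last in Mir18b. Copies outside the annotated hairpins were not searched.

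Replicate 1 held 3555469 reads on the annotated strand of microRNA genes and replicate 2 held 2761003, against totals of 11686912 and 9938361 reads, of which 45.8% and 41.0% mapped to several places. Levels are given as counts scaled to a total of 1000000 of these microRNA counts (CPM), so that 1 CPM is worth 3.56 reads in replicate 1 and 2.76 reads in replicate 2. The labelled tissue was checked with 13 microRNAs enriched in brain, of which 9 reached 2 CPM in both libraries and whose summed level was 87449 and 67728 CPM. Of these 13, 7 carry a RefSeq mature strand that stands whole in another hairpin, and the Mir124a genes are copies of each other, as are Mir1a-1 and Mir1a-2, so low counts of such genes cannot be read as low levels. The 5 epithelial markers, 4 of them detected, came to 1930 CPM (replicate 1) and 93.8 CPM (replicate 2), red cell markers (2 genes) to 23.3 and 519.7 CPM, and endothelial Mir126a stood at 12842 and 19723 CPM. Leukocyte markers (3 genes) summed to 448 and 385 CPM, liver Mir122 to 63.3 and 78.6 CPM, and muscle markers to 35.2 and 14.1 CPM with Mir1a-1 and Mir1a-2 at 0. In whole tissue, fewer cells of a type and less RNA per cell cannot be told apart.

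The cluster as a whole had 45226 counts in replicate 1 and 41707 in replicate 2. These were 1.27% (95% Wilson interval 1.26 to 1.28) and 1.51% (1.5 to 1.53) of microRNA counts, or 1.39% ± 0.169 (SD, n = 2). Members differed from each other far more than the libraries did. Mir17, Mir20a, Mir92-1 and Mir18 reached 2 CPM in both libraries, whereas Mir19a and Mir19b-1 did not. For comparison, 450 of all 2202 genes (20.4%) reached that level in both.

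Mir17, which carries the miR-17 seed, had the most assigned counts of the members, with 27063 counts (7612 CPM) in replicate 1 and 27576 counts (9988 CPM) in replicate 2. It ranked 29th and 22nd among 2202 genes, and its mean was 8799.7 ± 1680.1 CPM (SD, n = 2). Mir20a, which has the same seed, followed with 7085 counts (1993 CPM) and 7368 counts (2669 CPM), and averaged 2331 ± 478 CPM. Both genes had the higher level in replicate 2, and even the higher library of Mir20a stayed below the lower library of Mir17.

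Mir92-1, the last hairpin of the transcript, had 7671 counts (2158 CPM) in replicate 1 and 4304 counts (1559 CPM) in replicate 2, with a mean of 1858 ± 423 CPM. Mir18, whose mature strand is named miR-18a, had 3398 counts (956 CPM) and 2445 counts (886 CPM) and averaged 921 ± 49.6 CPM. Mir92-1 was the more variable of these, and its 2 libraries overlapped the range of Mir20a. In replicate 1 Mir92-1 ranked 77th and Mir20a 84th, while in replicate 2 Mir92-1 ranked 89th and Mir20a 67th.

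The miR-19 hairpins, whose seed is known as the main oncogenic component of the cluster in mouse lymphoma, were almost without counts. Mir19a had 5 counts (1.41 CPM, Wilson interval 0.601 to 3.29) in replicate 1 and 12 counts (4.35 CPM, 2.49 to 7.60) in replicate 2. Mir19b-1 had 4 counts (1.13 CPM, 0.438 to 2.89) and 2 counts (0.724 CPM, 0.199 to 2.64). Its count is a minimum, because reads within the stretch it shares with Mir19b-2 could be assigned to neither. A count of 0 would allow up to 3 counts, which is 0.844 CPM in replicate 1 and 1.09 CPM in replicate 2, so Mir19b-1 lay at about that limit.

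**Figure D1:**
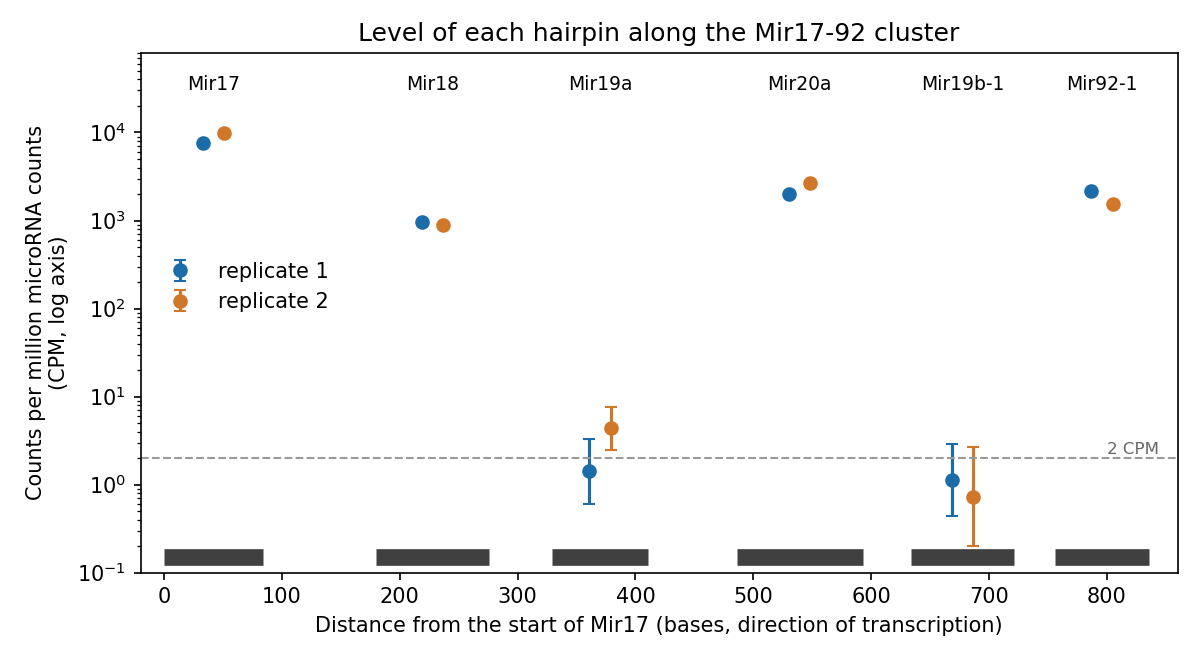
Level of each hairpin (CPM, log axis) against its distance in bases from the start of Mir17, for replicate 1 and replicate 2, with 95% Wilson intervals as bars, hairpins as dark blocks and 2 CPM as a dashed line. Mir17, Mir18, Mir20a and Mir92-1 lie between 886 and 9988 CPM, while Mir19a and Mir19b-1, which stand between them on the transcript, lie between 0.724 and 4.35 CPM. Values of Mir19b-1 and Mir92-1 are minima.

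In the order of mean levels, neighbours were compared by counts and also per base of hairpin. Because the libraries held short RNA, a count need not grow with hairpin length, so per-base values are given only as an alternative. Mir17 had 3.82 times the counts of Mir20a in replicate 1 and 3.74 times in replicate 2 (4.87 and 4.77 per base). Mir92-1 had 2.26 and 1.76 times the counts of Mir18 (2.71 and 2.11 per base). Mir18 had 679.6 and 204 times the counts of Mir19a (580.5 and 174 per base). Mir20a and Mir92-1 could not be ordered, since Mir20a had 0.924 of the counts of Mir92-1 in replicate 1 and 1.71 times them in replicate 2. Per base these values were 0.691 and 1.28. Mir19a and Mir19b-1 did not differ beyond counting error in replicate 1, with a count ratio of 1.25 (exact interval 0.269 to 6.30), and did in replicate 2, with a ratio of 6.0 (1.34 to 55.2). The Mir19b-1 count is a minimum, so the order of these levels is not settled.

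The drop in assigned counts within the cluster was steep. Mir17 had 6766 times the counts of Mir19b-1 in replicate 1 (exact interval 2642 to 24833) and 13788 times in replicate 2 (3817 to 113858), or 7007 and 14280.4 times per base. Because the whole miR-19b-3p strand also stands in Mir19b-2, the Mir19b-1 count is a minimum. These folds therefore cannot be read as a drop in level. Among the 4 detected members, the highest exceeded the lowest 7.96-fold in replicate 1 and 11.3-fold in replicate 2. There were 15 runs of 4 or more microRNA genes on a strand with gaps of at most 10 kb, and in 4 of them every gene had a count in both libraries. The Mir17-92 cluster had a geometric mean fold of 9658 from highest to lowest member, and the run around Mir450b on chromosome X, next among those 4, had 3786. By mean level the lowest genes of these runs were Mir19b-1 and Mir450-1, and both carry a mature strand that stands whole in another hairpin. In replicate 1 Mir450-2 was lower than Mir450-1, with 2 counts against 6, and it also carries such a strand. The other 11 runs held a gene with no count in a library. With 0 set to the limit of 3 counts, 2 of these 11 had a larger fold than the Mir17-92 cluster, the runs on chromosome 12 that begin with Mir770 (40879.8) and Mir379 (22625). Only a 0 was raised to this limit, and Mir19b-1 kept its 4 and 2 counts, so 2 of 11 is a minimum.

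Reads assigned to the opposite strand were 0 for all 6 members in both libraries, and counts of either strand equalled those of the annotated strand. The source of the low miR-19 counts was not tested.

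How the cluster's counts were divided does not depend on any scaling between libraries. Mir17 held 59.8% (Wilson interval 59.4 to 60.3) of them in replicate 1 and 66.1% (65.7 to 66.6) in replicate 2. Mir20a held 15.7% and 17.7%, Mir92-1 held 17% and 10.3%, and Mir18 held 7.51% and 5.86%. Mir19a and Mir19b-1 together held 0.0199% (0.0105 to 0.0378) and 0.0336% (0.0200 to 0.0563). The division is of assigned counts, and the counts of Mir92-1 and Mir19b-1 are minima. Shares of Mir17, Mir20a, Mir18 and Mir19a may therefore be too high.

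**Figure D2:**
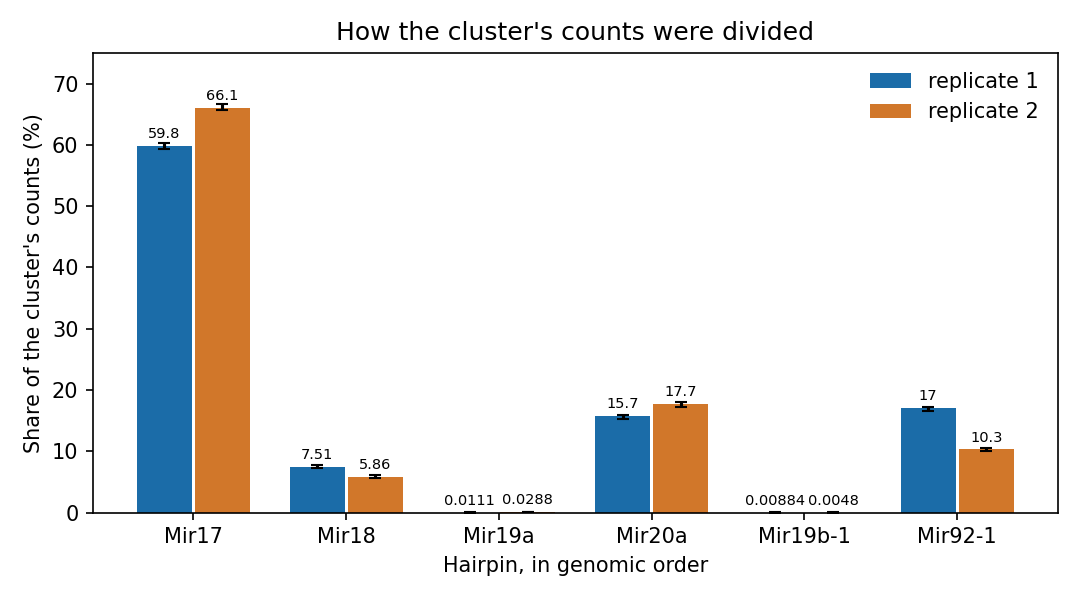
Share of the cluster's counts (%) held by each hairpin, in genomic order, for replicate 1 and replicate 2, with 95% Wilson intervals as bars. Mir17 holds 59.8% and 66.1%, and the share of Mir92-1 is 17% in replicate 1 and 10.3% in replicate 2. Counts of Mir92-1 and Mir19b-1 are minima.

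Within this division some pairs kept their proportion and others did not. Mir17 had 3.82 times the counts of Mir20a in replicate 1 (exact interval 3.72 to 3.92) and 3.74 times in replicate 2 (3.65 to 3.84), intervals that overlap. The ratio of Mir17 to Mir92-1 was 3.53 (3.44 to 3.62) in replicate 1 and 6.41 (6.20 to 6.62) in replicate 2, a 1.82-fold difference between the pups. The ratio of Mir17 to Mir18 was 7.96 (7.68 to 8.26) and 11.3 (10.8 to 11.8). The ratio of Mir18 to Mir92-1 was 0.443 (0.425 to 0.461) and 0.568 (0.540 to 0.597). In these ratios the Mir92-1 count is a minimum. Among the 4 detected members, the intervals of Mir17 to Mir20a overlapped between libraries, and those of every other pair did not. With genes of the same seed outside the cluster, some ratios were steady and others were not. Mir17 had 1.19 times the counts of Mir93 in replicate 1 (1.17 to 1.21) and 1.51 times in replicate 2 (1.49 to 1.54). Its ratio to Mir106b was 2.50 (2.45 to 2.56) and 3.53 (3.45 to 3.63). Intervals overlapped for Mir92-1 to Mir92-2, at 57.7 (48.6 to 69.0) and 62.4 (49.2 to 80.3). They also overlapped for Mir18 to Mir18b, at 485 (235 to 1208) and 489 (209 to 1507), with few counts of Mir18b. These intervals cover counting error only, and with 1 library per pup no test of the difference exists.

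Between the pups, the members' assigned counts went in both directions. Ratios are log2 values of replicate 1 over replicate 2 after TMM scaling, with exact 95% counting intervals. Mir17 was at -0.43 (-0.45 to -0.41), Mir20a at -0.46 (-0.51 to -0.41) and Mir19a at -1.59 (-3.52 to -0.06), the last from 5 and 12 counts. Mir92-1 was at 0.43 (0.38 to 0.49). The count of Mir92-1 is a minimum in each library, and the part left unassigned may differ between libraries. Its ratio and that of the summed cluster therefore hold for assigned counts only. Mir18 was at 0.07, with an interval from 0.00 to 0.15 that includes 0, and Mir19b-1 had too few counts for a ratio that could be read. The summed cluster was at -0.29 (-0.30 to -0.27).

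The members' ratios were set against those of all genes. Among members, 5 reached 10 counts over both libraries and 4 of these had an interval wholly off 0, against 55.2% of the 525 genes that reached 10. None of the 4 members with 100 counts or more differed 2-fold, against 16.2% of 308 genes. The median size of their log2 ratio was 0.43, and it was 0.34 over those 308 genes. The quartiles of those genes were -0.30 and 0.41, so that Mir18 lay between them and Mir17, Mir20a and Mir92-1 lay just outside. The epithelial, red cell and endothelial markers given above also differed between the pups, and their part in the members' ratios was not tested.

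The genes that share a seed with a member were set beside it, 13 outside the cluster in all. For the miR-17 seed these were Mir93 and Mir106b of the chromosome 5 cluster, Mir106a and Mir20b of the chromosome X cluster, and Mir6383, which had no count. Mir93 stood at 6393 and 6597 CPM and Mir106b at 3043 and 2825 CPM in replicate 1 and replicate 2. Mir106a had 18.0 and 19.9 CPM and Mir20b 20.0 and 15.9 CPM, although miR-106a-5p differs from miR-17-5p at 1 base (U10A). Mir17 and Mir20a supplied 50.3% of the counts of genes with this seed in replicate 1 and 57.2% in replicate 2.

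For the miR-92 seed, the member had fewer assigned counts than a gene elsewhere. Mir92b on chromosome 3, known from neural progenitors, had 5396 and 3629 CPM, and Mir92-1 supplied 27.1% (26.6 to 27.7) and 28.3% (27.6 to 29.0) of the counts of the seed group. Mir92-2, the copy on chromosome X, had 37.4 and 25 CPM, so that Mir92-1 had 57.7 times its counts in replicate 1 (48.6 to 69.0) and 62.4 times in replicate 2 (49.2 to 80.3). Mir25 had 268 and 216 CPM, Mir32 71.4 and 66.6 CPM and Mir363 20.3 and 18.5 CPM, while Mir367 had no count. Reads within the common stretch of Mir92-1 and Mir92-2, which holds the whole mature strand, could be assigned to neither, so both counts are minima and the order of Mir92-1 and Mir92b is not settled.

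For the miR-18 seed, Mir18 was nearly the only source, with 99.8% of counts in both libraries beside 7 and 5 counts of Mir18b. For the miR-19 seed, Mir19b-2 had 1 and 2 counts and the whole group of 3 genes 10 counts in replicate 1 and 16 in replicate 2. Seed groups differed widely in summed assigned counts, with 20596 ± 2147 CPM for miR-17, 6733 ± 1723 CPM for miR-92, 923 ± 49.7 CPM for miR-18 and 4.30 ± 2.11 CPM for miR-19 (SD, n = 2). The miR-92 and miR-19 sums are minima, because reads within the stretches shared by the Mir92 pair and the Mir19b pair were assigned to no gene. The order of the groups in level is thus not settled. A gene's count adds its other arm, which has a different seed.

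**Figure D3:**
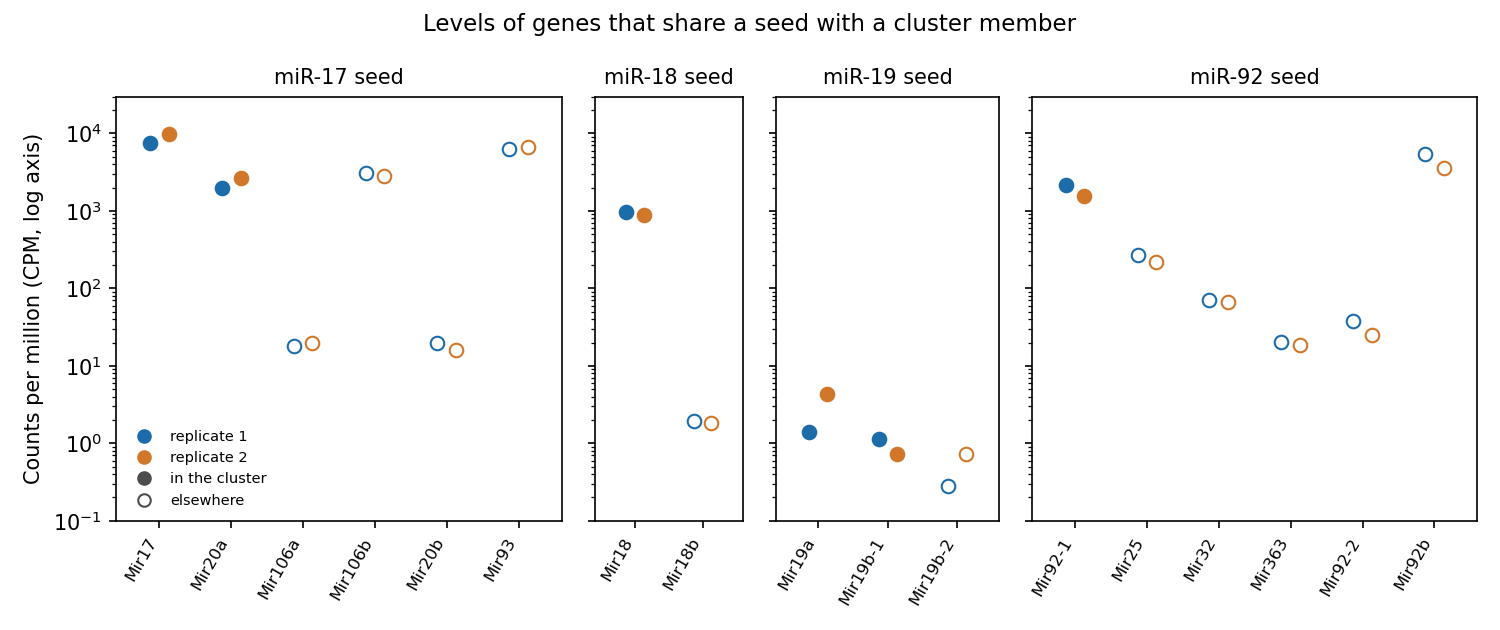
Levels (CPM, log axis) of the genes with a count whose mature strand has the seed of a cluster member, in replicate 1 and replicate 2; filled points are in the cluster and open points elsewhere. Mir17 and Mir93 lead the miR-17 seed, Mir92b lies above Mir92-1, and all 3 genes with the miR-19 seed lie at 4.35 CPM or less. Values of Mir92-1, Mir92-2, Mir19b-1 and Mir19b-2 are minima.

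Point ratios of the genes with the miR-92 seed lay on the same side of 0, and those of genes with the miR-17 seed did not. All 6 genes with the miR-92 seed and counts had a log2 ratio above 0, from 0.06 for Mir32 to 0.54 for Mir92-2. Ratios above 0 were 6 of 6 under each of the 5 scalings tried, 4 of them added after the data were seen. Intervals lay wholly above 0 for 4 of the 6 genes, against 150 of the 525 genes that reached 10 counts. Those of Mir32 (-0.22 to 0.34) and Mir363 (-0.44 to 0.64) included 0. Counts of Mir92-1 and Mir92-2 are minima, so their ratios hold for assigned counts only. Mir92b was at 0.53 (0.50 to 0.57). The ratio of Mir92-1 to Mir92b was 0.40 (0.389 to 0.411) in replicate 1 and 0.430 (0.414 to 0.445) in replicate 2, intervals that did not overlap. Of the 6 genes with the miR-17 seed and counts, Mir106b (0.07) and Mir20b (0.28) were above 0, and Mir93 (-0.08) and Mir106a (-0.19) lay nearer 0 than Mir17 and Mir20a. Of the 525 genes that reached 10 counts, 49.9% were above 0. The seed groups were looked at with these values known, so the counts are descriptions.

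**Figure D4:**
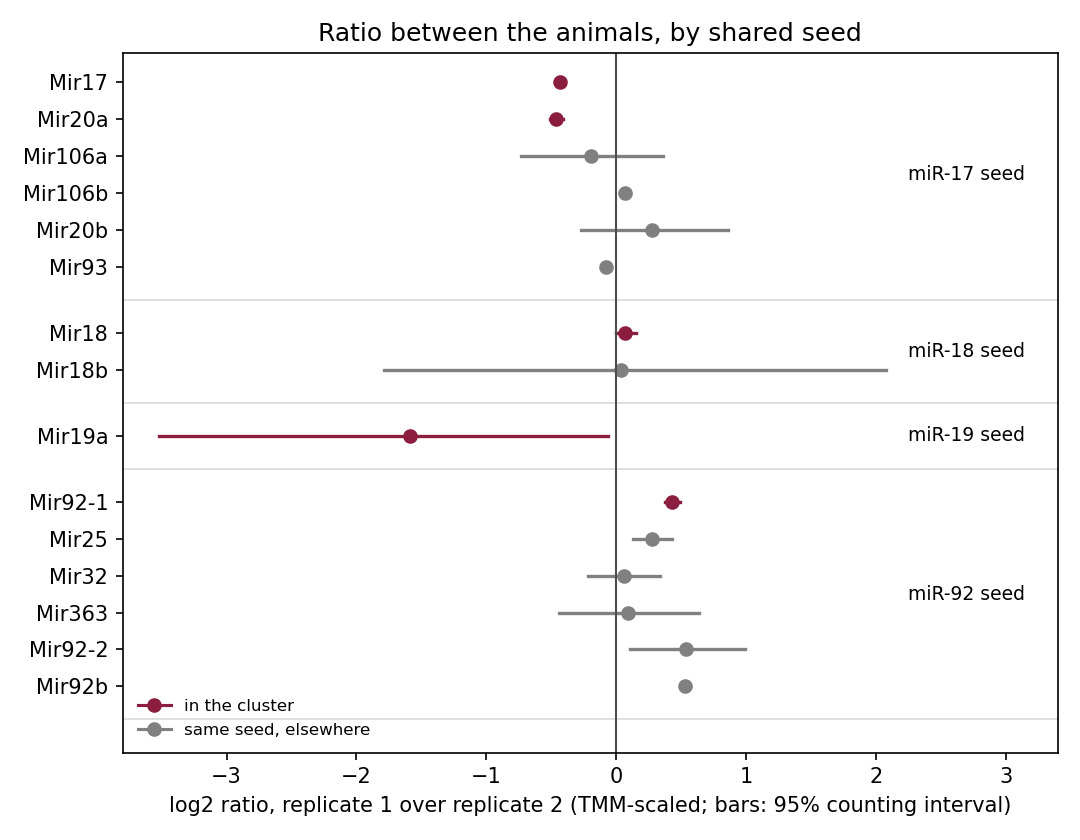
Log2 ratio of replicate 1 over replicate 2 (TMM-scaled) with 95% counting intervals for genes that reached 10 counts over both libraries, grouped by shared seed; dark red points are in the cluster and grey points elsewhere. Mir17 and Mir20a lie at -0.43 and -0.46, Mir92-1 at 0.43, and all 6 genes with the miR-92 seed lie above 0. Intervals of Mir32 and Mir363 include 0. Counts of Mir92-1 and Mir92-2 are minima, so their ratios hold for assigned counts only.

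Set against its paralogs, the cluster had 13913 ± 1687 CPM in sum, the chromosome 5 cluster of 3 genes 9671 ± 47.0 CPM and the chromosome X cluster of 6 genes 89.9 ± 11.3 CPM (SD, n = 2). It exceeded the chromosome 5 cluster 1.31-fold in replicate 1 and 1.57-fold in replicate 2, and the chromosome X cluster 130.0-fold and 185-fold. The chromosome 5 sum changed little between pups, with a log2 ratio of -0.03 (-0.05 to 0.00) against -0.29 for the Mir17-92 cluster. Reads within the stretches shared by the Mir92 pair and the Mir19b pair were assigned to no gene. Sums of the Mir17-92 and chromosome X clusters are therefore minima, and these folds and ratios hold for assigned counts only.

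The genes whose levels lay nearest to a member were found by the Euclidean distance of log2(CPM + 1) over the 2 libraries. Nearest to Mir17 was Mir181d (7308 and 10002 CPM, distance 0.0587), and nearest to Mir92-1 was Mir423 (2139 and 1564 CPM, 0.0134). Mir668 (989 and 845 CPM, 0.0838) was nearest to Mir18 and Mir598 (2213 and 2669.7 CPM, 0.152) to Mir20a. Mir19a had the same counts as Mir6939, and Mir19b-1 the same counts as 4 genes, among them Mir6941. With 2 libraries, this likeness reflects level more than pattern.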

How the data were processed

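Small RNA libraries of 2 replicates were analysed. The authors deposited raw read counts for each microRNA gene, neither normalized nor pooled; their library notes name mm10 and GENCODE M21. Aligner, counter, trimming and filters are not given in the sources used here. The tables have no column names: the 3 value columns were read as either strand, annotated strand and opposite strand from their layout and values. Counts on the annotated strand were used. Totals that name no gene, 69.6% and 72.2% of reads, stayed out of library sizes.

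CPM, Wilson and Clopper-Pearson 95% intervals and ranks were computed with Python 3.11.15 and scipy 1.17.1, TMM and RLE factors with edgeR 4.0.16 over genes that reached 10 counts over both libraries, and folding energies with RNAfold 2.7.2. Ratios had 0.5 added to each count. Reads copied by PCR are not separate molecules, so intervals and limits hold for counting error alone. Detection means 2 CPM in both libraries. Hairpin sequences came from the M21 transcripts and mature strands from RefSeq's table (GRCm38.p6, 1018 of 2202 genes matched by symbol). Named were the 6 members, genes with a member's seed or mature strand, and the nearest gene in level. The choice of this cluster for description, the marker lists and the seed groups were made with earlier results of these data known. Scaling, strand column, added count, hairpin length, detection minimum, cluster gap and left-out replicates were varied. CAST variants can affect mapping, which was not tested.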

Additional observations from a re-analysis of the deposited data

How the results depend on the processing

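Of 82 values recomputed with both replicates, 75 kept their direction and side of the limit or moved by less than 1 SD, and none reversed. The cluster's share fell to 0.403% when set against all reads of the library, by the construction of that share. With counts of either strand the level of Mir18 was 981 CPM, with the same counts of Mir18 and a smaller sum over all genes (3342547 and 2585311 reads), and per base of hairpin the share of Mir20a was 13.6% of the cluster. The ratio of Mir18 between pups, 0.07, had an interval that left 0 with library sums (0.11), with all genes in the scaling factor (0.13) and with counts of either strand (0.08). At a minimum of 1 CPM 5 members were detected, and at 10 CPM 4. The share of all genes is given for 2 CPM only, at 20.4%, so these 2 numbers have no background beside them. The cluster's spread ranked 1st of the 4 runs with a count for every gene. It ranked 3rd at best once runs with a gene at 0 were kept at the 3-count limit, an alternative added after the data were seen. With gaps of at most 3 kb and 50 kb, 3 of 8 and 2 of 13 such runs had a larger fold. Leaving out replicate 1 or replicate 2 gave shares of 1.51% and 1.27% and a spread from highest to lowest member of 13788 and 6766; with 2 replicates such a move is a fixed part of the SD and says nothing of stability for levels and shares. No paired analysis was possible because there is 1 group. Depth limits Mir19a and Mir19b-1, which rest on 2 to 12 counts a library. The count of Mir19b-1 is also limited by its copy on chromosome X.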
